A study of Arabidopsis thaliana with 18 samples.

Results

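Expansins and xyloglucan endotransglucosylase/hydrolases (XTHs) are 2 large families of secreted plant proteins that loosen or remodel the primary cell wall, and their transcripts were followed here in Arabidopsis seedlings with and without auxin. The genes were taken from the families EXPA, EXPB, EXLA, EXLB and XTH, 53 in all, and the choice was made with earlier results of these data known. It leaves out 16 further genes of the families, of which XTH10 and XTH11 were expressed enough to be tested and passed in no comparison. Of the 53 genes, 50 had more than 1 CPM (counts per 1000000 counts of a library) in at least 2 of the 3 samples of a group, namely 24 expansins and 26 XTHs, out of 28278 genes in the table and 19383 that passed the same filter. This filter used CPM before TMM scaling, and the CPM values given below are after it. EXPA2, XTH3 and XTH25 did not pass, with at most 11, 3 and 32 counts in any sample. EXPA17 and XTH21 passed in only 3 of the 6 groups and EXPB1 in 5, and the other 47 genes passed in all 6. For these 3 genes a difference between groups is in part built into the filter.

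RNA was sequenced from whole seedlings, 4 d old, of 3 genotypes. aff1-1 carries an EMS-induced missense change in AFF1, an F-box gene, and was isolated in an arf19-1 line that overexpresses YFP-tagged ARF19 from the 35S promoter and later backcrossed to Col-0; the labels do not say whether arf19-1 or the transgene remained in the seedlings sequenced. aff1-3 is a T-DNA line, Salk_083453, which the sample labels call aff1-2, and Col-0 is the wild type (Wt). Seedlings were kept for 2 h in liquid medium with the auxin indole-3-acetic acid (IAA) at 10 μM, or with ethanol (mock). One protocol among the labels gives the dose in mM, where the sample titles give μM. Each of the 6 groups had 3 samples, described as repeated treatments, and nothing says that they came from separate cultures, so that the p-values measure the spread between these samples. Total counts ranged between 12610301 and 36102396 per sample, and Spearman correlations within groups between 0.981 and 0.994. AFF1 itself had 73, 54 and 46 counts in IAA-treated and 104, 88 and 144 in mock-treated aff1-3, at most 3 in any aff1-1 sample and at most 9 in any Wt sample. Counts on AFF1 thus separated aff1-3 from the other lines, upward, and did not separate aff1-1 from Wt at this depth. A count per gene does not show where along AFF1 the aff1-3 reads lie.

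Expansins act on the contacts between cellulose and the polysaccharides around it, without cutting them, and work best in an acidic wall. XTHs cut xyloglucan, the main hemicellulose of these walls, and join the cut end to another xyloglucan chain or to water. Auxin is known to acidify the wall through plasma membrane proton pumps, and auxin response factors such as ARF19 switch on genes of growing cells. Some family members are known from 1 cell type, among them EXPA7 and EXPA18 from root hairs, and since whole seedlings were used here, fewer cells of a type and less RNA per cell cannot be told apart.

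Per kilobase of exon, XTH31 (AT3G44990) had the highest level of the members in mock-treated Wt, with a mean of 867 CPM per kilobase, followed by XTH7 (313) and XTH4 (291). Of the expansins, EXPA1 was highest with 128 CPM per kilobase, then EXPA9 with 72.3 and EXPA6 with 65.0. XTH21 was the lowest of the 50, with 1.58 CPM per kilobase. The members together made up between 0.361% and 0.513% of all counts in a sample.

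The summed expansin level was higher after IAA in each genotype and lower in aff1 than in Wt. The 24 expansins summed to 1085, 1050 and 1070 CPM in IAA-treated against 722, 778 and 772 CPM in mock-treated aff1-1. In aff1-3 they summed to 1092, 1059 and 1093 CPM with IAA against 772, 751 and 790 CPM with mock, and in Wt to 1209, 1187 and 1164 CPM with IAA against 912.5, 1002 and 1018 CPM with mock. No 2 of the groups set against each other overlapped, between treatments of a genotype or between aff1 and Wt with the same treatment. The 26 XTHs did not share this order. In aff1-1 they summed to 2831 to 3279 CPM with IAA against 2811 to 3251 CPM with mock, which overlapped. In aff1-3 they summed to 2708 to 2878 CPM with IAA against 3130 to 3602 CPM with mock, and in Wt to 2884, 3095 and 2842 CPM with IAA against 3349, 3920 and 4146 CPM with mock, the IAA sums lying below the mock sums in both. Such sums rest mostly on the most abundant genes. In Wt, the mean of EXPA4 was 202 CPM with IAA and 71.0 with mock, and that of EXPA1 264 and 198. The mean of XTH31 was 495 and 1208 CPM, and that of XTH7 182 and 404. Tested gene by gene in Wt, at the threshold given below, 6 expansins rose and 5 fell, and 3 XTHs rose and 8 fell. Of all genes tested, 4.92% rose and 4.74% fell. The falling genes include EXPB1 and XTH21, whose differences are in part built into the filter.

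**Figure D1:**
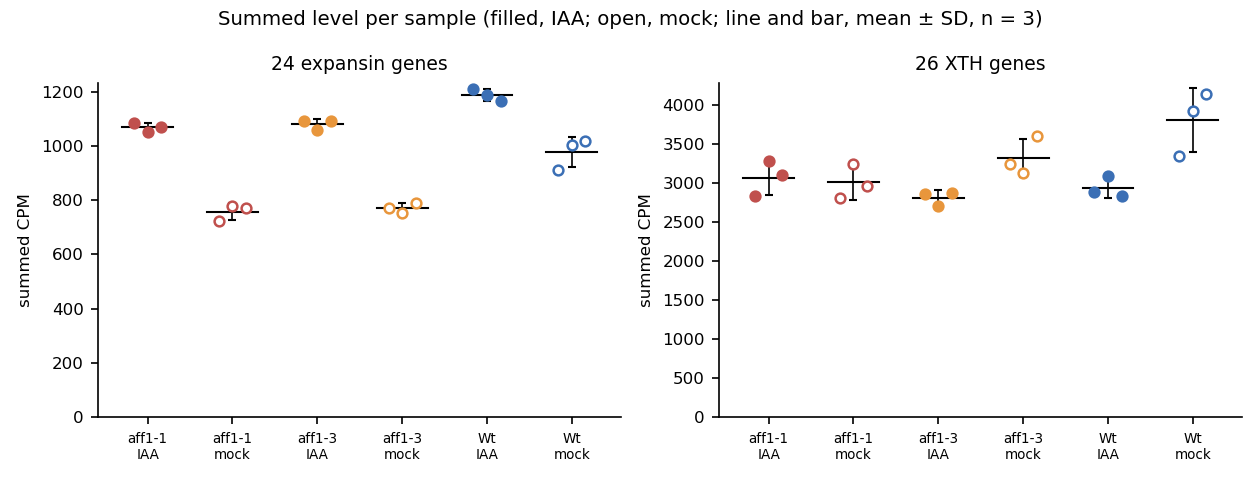
Summed CPM of the 24 expansins (left) and the 26 XTHs (right) in each of the 18 samples, by genotype and treatment. Filled points are IAA-treated and open points mock-treated samples, and the line and bar give the mean and SD of 3 samples. The expansin sums of the 6 mock-treated aff1 samples, 722 to 790 CPM, lie below all 3 of mock-treated Wt, 912.5 to 1018 CPM.

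Tested gene by gene, 40 of the 50 members were past the threshold (edgeR's quasi-likelihood test, Benjamini-Hochberg adjusted p below 0.01 over all genes tested) in at least 1 comparison. The share of all genes past it in at least 1 comparison was not counted. In each of the 131 results of members past the threshold the samples of the compared groups did not overlap. With 3 samples per group this separation is largely set by the threshold, and its share over all genes was not counted. After IAA, 21 members changed in aff1-1, against 4.87% of all genes tested, 12 higher (3.16% of all genes) and 9 lower (1.71%). In aff1-3, 17 members changed, against 4.95% of all genes, 9 higher (2.98%) and 8 lower (1.97%), and in Wt 22, against 9.66% of all genes, 9 higher (4.92%) and 13 lower (4.74%). With mock, 16 members differed between aff1-1 and Wt, against 4.58% of all genes, 1 higher (2.96%) and 15 lower (1.62%), and 22 between aff1-3 and Wt, against 6.78%, 4 higher (4.08%) and 18 lower (2.70%). With IAA, 20 members differed between aff1-1 and Wt, against 6.17% of all genes, 6 higher (4.46%) and 14 lower (1.71%), and 13 between aff1-3 and Wt, against 4.72%, 3 higher (3.39%) and 10 lower (1.33%). These counts include results of EXPA17, XTH21 and EXPB1, whose differences are in part built into the filter. When each of the 6 samples of a comparison was left out in turn, 49 of the 131 results were no longer past the threshold in at least 1 of the 6 fits, 36 of them in 3 or more and 3 whichever sample was left out. Where a result is given below as lost in this way, the sample named is the one whose removal gave the highest adjusted p, and removing other samples often lost it too. Comparisons of a genotype with Wt in 1 treatment share the Wt samples. The same Wt samples also enter the IAA response of Wt and the tests of whether that response differed in aff1. Such results for a gene are therefore not independent of each other. The median log2 fold change of the members was -0.21 in aff1-1 and -0.32 in aff1-3 against Wt with mock, where the median of all genes was within 0.01 of 0 in both. After IAA the medians of the members were 0.14 in aff1-1, 0.07 in aff1-3 and -0.08 in Wt.

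**Figure D2:**
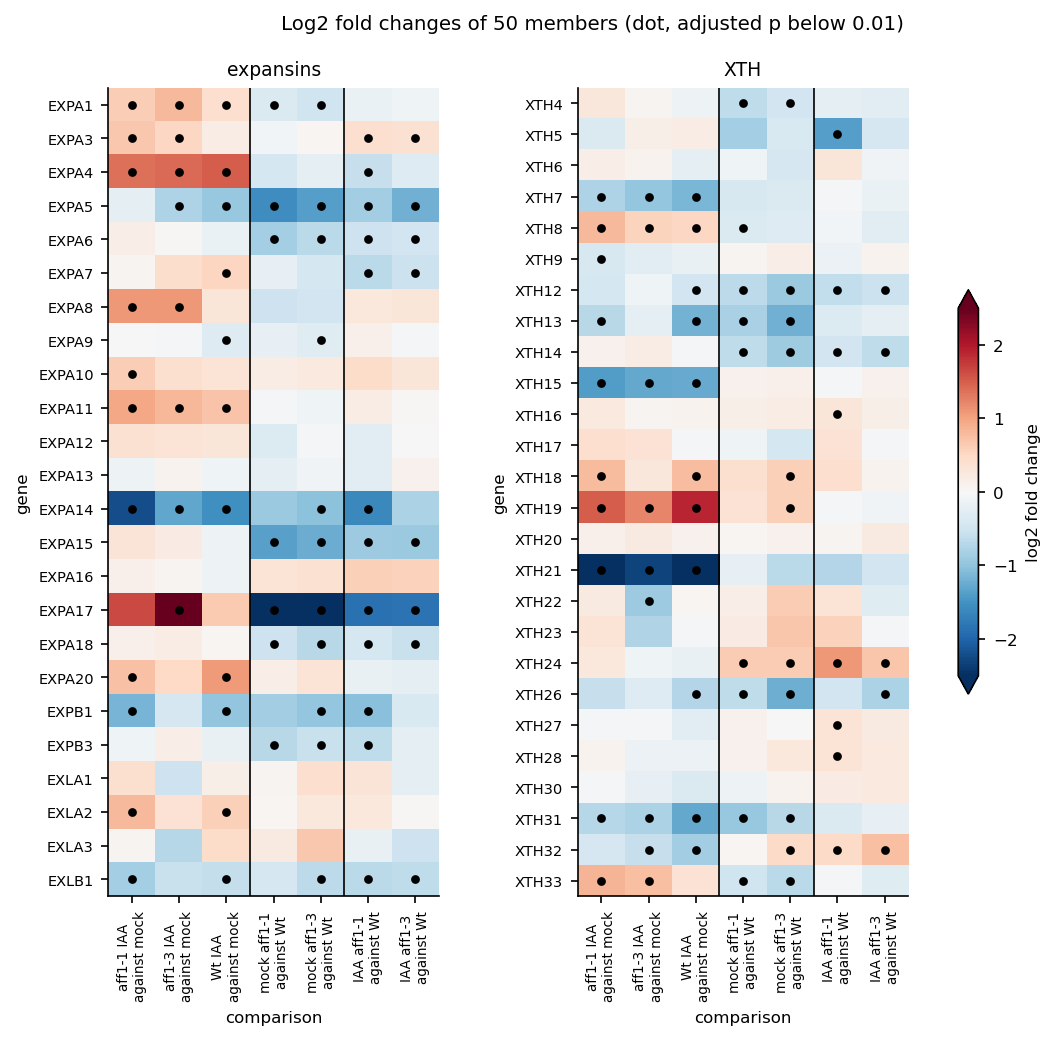
Log2 fold change of each of the 50 members (rows) in 7 comparisons (columns), in colour, with IAA against mock in the first 3 columns and aff1 against Wt in the other 4. A dot marks an adjusted p below 0.01, and the colour scale ends at 2.5 in both directions. In the columns of mock-treated aff1 against Wt, 15 members are lower and 1 higher in aff1-1, and 18 lower and 4 higher in aff1-3.

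Of the members that rose after IAA in all 3 genotypes, XTH19 and EXPA4 had the largest fold changes. XTH19 (AT4G30290), an XTH of roots, had 151, 184 and 167 CPM in IAA-treated against 61.3, 63.0 and 52.1 CPM in mock-treated aff1-1, 157, 159 and 166 CPM in IAA-treated against 57.2, 71.4 and 79.5 CPM in mock-treated aff1-3, and 171, 179 and 161 CPM in IAA-treated against 40.0, 50.1 and 47.05 CPM in mock-treated Wt. The IAA samples of the 3 genotypes reached about the same level, and the mock samples of Wt were the lowest. The log2 fold change was 1.51 in aff1-1, 1.21 in aff1-3 and 1.90 in Wt, each with an SE of 0.11 (highest adjusted p = 8.03e-08, edgeR). XTH19 lies on chromosome 4 between 14828712 and 14830224, near XTH18 and XTH24, and 1.77% of its exonic 50-base windows also occur in XTH17 or XTH18, so that reads from these windows do not align uniquely.

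EXPA4 (AT2G39700), an alpha-expansin, had 146, 121 and 140.5 CPM in IAA-treated against 52.96, 46.1 and 58.5 CPM in mock-treated aff1-1, 169.6, 154 and 159 CPM against 67.3, 50.2 and 63.7 CPM in aff1-3, and 214, 199 and 193 CPM against 59.7, 76.6 and 76.7 CPM in Wt. All IAA samples lay above all mock samples. Its log2 fold change was 1.37 in aff1-1, 1.41 in aff1-3 and 1.51 in Wt, each with an SE of 0.12 (highest adjusted p = 2.91e-08, edgeR). With IAA the level in aff1-1 was below that in Wt (log2 fold change -0.57, adjusted p = 0.00175), a call that was lost without either of 2 samples (adjusted p up to 0.0159, without IAA-treated aff1-1 replicate 2).

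EXPA11, XTH8 and EXPA1 also rose in all 3 genotypes. EXPA11 (AT1G20190) had 65.3, 68.4 and 72.4 CPM with IAA against 32.0, 42.9 and 30.99 CPM with mock in aff1-1, 62.4, 56.2 and 64.9 CPM against 31.3, 34.6 and 36.6 CPM in aff1-3, and 64.2, 60.7 and 55.6 CPM against 34.3, 39.2 and 36.2 CPM in Wt, log2 fold changes of 0.97, 0.84 and 0.72 in that order of genotypes. XTH8 changed by 0.80, 0.57 and 0.51 on the log2 scale in aff1-1, aff1-3 and Wt. EXPA1, which is known as an expansin of expanding organs, changed by 0.61, 0.81 and 0.42. The highest adjusted p among the results of these genes was 0.000222 (edgeR).

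Other members rose past the threshold in some genotypes only, and the test of whether their response differed between genotypes did not pass for any of them. EXPA20 rose in aff1-1 (log2 fold change 0.73) and Wt (1.07), with 0.51 in aff1-3. Its gene overlaps another counted gene on the opposite strand. XTH18 rose in aff1-1 (0.80) and Wt (0.77), with 0.27 in aff1-3, and EXLA2, an expansin-like gene, rose in aff1-1 (0.81) and Wt (0.59), with 0.37 in aff1-3. EXPA8, EXPA3 and XTH33 rose in both aff1 lines, by 1.09 and 1.09, 0.67 and 0.51, and 0.84 and 0.75 in aff1-1 and aff1-3, against 0.31, 0.18 and 0.36 in Wt. EXPA10 rose in aff1-1 alone (0.61, against 0.40 in aff1-3 and 0.34 in Wt). Among these, the calls of EXPA20 and EXPA10 in aff1-1 and EXLA2 in Wt were lost with a sample left out (adjusted p = 0.0268 without IAA-treated replicate 1, 0.0343 without mock-treated replicate 2 and 0.0293 without IAA-treated Wt replicate 2, edgeR).

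**Figure D3:**
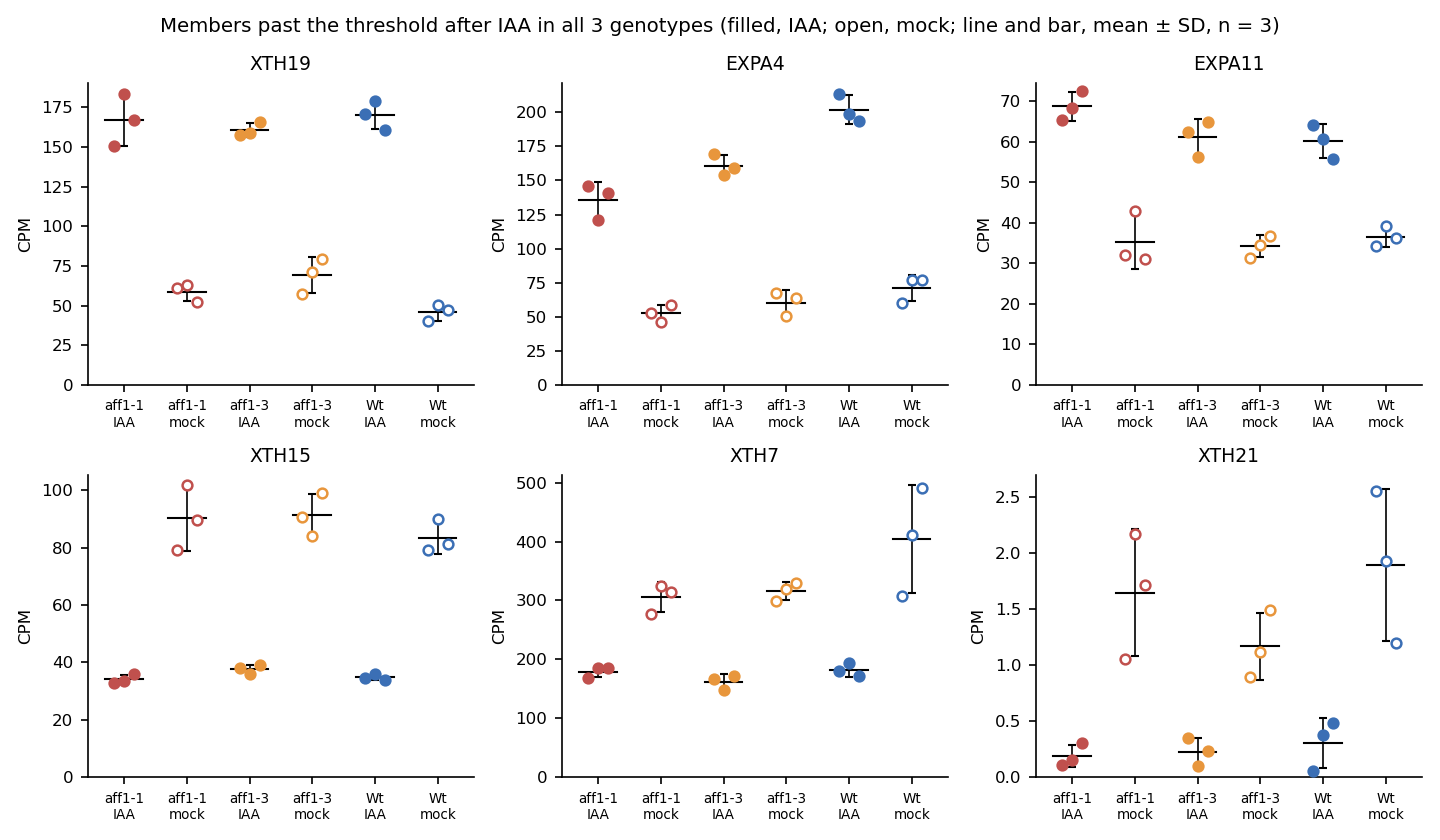
CPM of 3 members that rose (XTH19, EXPA4, EXPA11) and 3 that fell (XTH15, XTH7, XTH21) after IAA in all 3 genotypes, in each sample. Filled points are IAA-treated and open points mock-treated samples, with the mean and SD of 3 samples. IAA and mock samples of a genotype do not overlap in any panel; XTH15 lies at 33.0 to 39.0 CPM in all IAA-treated samples and at 79.0 to 102 CPM in all mock-treated ones.

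Of the 26 XTHs, 6 fell and 4 rose after IAA in aff1-1, 6 fell and 3 rose in aff1-3, and 8 fell and 3 rose in Wt. Of the 24 expansins, 3 fell and 8 rose in aff1-1, 2 fell and 6 rose in aff1-3, and 5 fell and 6 rose in Wt. Of all genes tested, 1.71% fell and 3.16% rose in aff1-1, 1.97% and 2.98% in aff1-3, and 4.74% and 4.92% in Wt. The XTH falls include XTH21 in each genotype, and the expansin falls include EXPB1 in aff1-1 and Wt. The expansin rises in aff1-3 include EXPA17. The differences of these genes are in part built into the filter. XTH15 (AT4G14130), which is also known as XTR7 and responds to light and shade, had 33.0, 33.5 and 36.0 CPM in IAA-treated against 79.1, 102 and 89.7 CPM in mock-treated aff1-1, 37.9, 36.0 and 39.0 CPM against 90.55, 84.15 and 99.1 CPM in aff1-3, and 34.4, 35.9 and 34.0 CPM against 79.0, 89.98 and 81.3 CPM in Wt. The 2 treatments were far apart and the genotypes close together. The log2 fold changes were -1.40, -1.28 and -1.26, each with an SE of 0.09 (highest adjusted p = 1.66e-09, edgeR). XTH15 overlaps a counted gene on the other strand, and whether the counting used strand is not given in the sources used here.

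XTH31 and XTH7, which had the highest levels per kilobase in mock-treated Wt, both fell. XTH31 (AT3G44990) had 375, 389.9 and 382 CPM with IAA against 554, 723 and 598 CPM with mock in aff1-1, 447, 418.5 and 427 CPM against 815, 648 and 779 CPM in aff1-3, and 467, 512 and 505 CPM against 1022, 1244 and 1357 CPM in Wt. Its mock-treated Wt samples stood above all others. The log2 fold change after IAA was -0.71 in aff1-1, -0.79 in aff1-3 and -1.29 in Wt, each with an SE of 0.11. XTH7 fell by 0.77, 0.96 and 1.15 on the log2 scale in aff1-1, aff1-3 and Wt. XTH32, which belongs with XTH31 to the branch of the family with xyloglucan-hydrolysing members, fell by 0.58 in aff1-3 and 0.86 in Wt, with -0.42 in aff1-1 (adjusted p = 0.0161, edgeR).

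EXPA14 and XTH21 had the steepest falls, at low counts. EXPA14 (AT5G56320) had 2.45, 1.31 and 0.971 CPM with IAA against 6.47, 9.90 and 5.99 CPM with mock in aff1-1, 3.16, 2.39 and 2.84 CPM against 8.09, 5.50 and 7.04 CPM in aff1-3, and 5.51, 4.11 and 5.11 CPM against 17.9, 15.3 and 9.24 CPM in Wt, log2 fold changes of -2.21, -1.30 and -1.53. XTH21 (AT2G18800), known from root growth, had 3, 3 and 9 counts with IAA against 24, 34 and 45 with mock in aff1-1, 8, 2 and 3 against 23, 25 and 40 in aff1-3, and 1, 12 and 11 against 61, 46 and 43 in Wt. No group overlapped its partner for either gene. The ratio of summed, scaled counts of XTH21 was 0.123 in aff1-1, 0.199 in aff1-3 and 0.185 in Wt, with 95% exact counting intervals of 0.0667 to 0.213, 0.102 to 0.358 and 0.115 to 0.287 that cover counting error only. Of its exonic 50-base windows, 7.82% occur elsewhere in the genome. XTH21 passed the filter in only 3 of the 6 groups, so its fall is in part built into the filter. In aff1-3 both calls were lost by limma (adjusted p = 0.0116 for EXPA14 and 0.0323 for XTH21), that of XTH21 also with the replicate number as a block (adjusted p = 0.0116, edgeR), and both without IAA-treated replicate 2 (adjusted p = 0.0375 and 0.0623).

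Smaller falls passed in some genotypes. EXPB1, a beta-expansin, fell in aff1-1 (-1.16) and Wt (-0.996), with -0.42 in aff1-3. EXLB1 fell in aff1-1 (-0.85) and Wt (-0.60), with -0.56 in aff1-3 (adjusted p = 0.0201, edgeR). EXPA9 fell in Wt (-0.31, against 0.02 in aff1-1 and -0.05 in aff1-3), and XTH9 in aff1-1 (-0.41, against -0.26 in aff1-3 and -0.19 in Wt). Several of these calls were lost with a sample left out. In Wt, EXPB1 reached an adjusted p of 0.0265 without IAA-treated replicate 2, EXPA9 0.0244 without mock-treated replicate 2 and EXLB1 0.0349 without mock-treated replicate 3, and in aff1-1 EXPB1 reached 0.0226 without IAA-treated replicate 3 and XTH9 0.0218 without IAA-treated replicate 2 (edgeR).

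Whether the response to IAA differed between aff1 and Wt was tested as an interaction, and no member passed, in aff1-1 or in aff1-3, where 0.0722% (0.0155% with a higher and 0.0568% with a lower value) and 0.0877% (0.0361% and 0.0516%) of all genes did. At an unadjusted p below 0.05, 20 and 19 of the 50 members differed in aff1-1 and aff1-3, against 2358 and 2031 of the 19383 genes. DESeq2 called 0 and 3 members, and 94 and 117 of the 19383 genes. Limma called 0 members in both, and 48 and 11 of all genes. The difference was 0.96 ± 0.18 (SE, log2) for XTH13 in aff1-3 (adjusted p = 0.0174 in edgeR and 0.00046 in DESeq2), whose fall in Wt is described with the root hair genes. It was -0.69 ± 0.16 for XTH19 (adjusted p = 0.0495 and 0.00891) and 0.40 ± 0.10 for EXPA1 (0.0945 and 0.00915), both in aff1-3. Leaving out mock-treated aff1-3 replicate 1 brought XTH19 past the threshold (adjusted p = 0.00988, edgeR), in a fit where 30 of 19370 genes passed. For EXPA8, the difference was 0.78 ± 0.20 in aff1-1 and 0.78 ± 0.19 in aff1-3 (adjusted p = 0.0977 and 0.0824, edgeR).

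With mock, most members past the threshold between genotypes were lower in aff1. Of the 24 expansins, 7 were lower in aff1-1 and 11 in aff1-3, and 0 were higher in either. Both counts include EXPA17, and the count in aff1-3 also includes EXPB1. The differences of these genes are in part built into the filter. Of the 26 XTHs, 8 were lower and 1 higher in aff1-1, and 7 lower and 4 higher in aff1-3. Over all genes the split ran the other way, with 1.62% lower and 2.96% higher in aff1-1 and 2.70% lower and 4.08% higher in aff1-3.

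EXPA5 (AT3G29030), an alpha-expansin of growing organs known to respond to brassinosteroids, lies on chromosome 3 on the minus strand from 11011262 to 11013451. The 250 bases before its start (chr3:11013452-11013701, minus strand, TAIR10.1, RefSeq) are shown because they hold TGTCTC, a motif that auxin response factors bind, more than once, with both copies in capitals.
EXPA5: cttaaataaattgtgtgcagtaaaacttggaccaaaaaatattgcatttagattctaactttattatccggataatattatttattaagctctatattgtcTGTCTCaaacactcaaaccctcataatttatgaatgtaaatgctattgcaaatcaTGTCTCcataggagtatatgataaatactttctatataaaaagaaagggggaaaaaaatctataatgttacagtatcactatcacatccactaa
EXPA5 was at 6.54, 9.41 and 6.93 CPM in IAA-treated aff1-1, 6.93, 5.18 and 5.61 CPM in IAA-treated aff1-3 and 13.8, 15.6 and 11.8 CPM in IAA-treated Wt. With mock it was at 8.35, 10.7 and 8.13 CPM in aff1-1, 9.48, 9.22 and 11.5 CPM in aff1-3 and 22.9, 25.6 and 30.45 CPM in Wt. Each aff1 group lay below Wt with the same treatment, and mock-treated Wt stood apart from all other groups. Against Wt the log2 fold change with mock in aff1-1 and aff1-3 was -1.55 and -1.39, each with an SE of 0.16 (highest adjusted p = 3.83e-06, edgeR), and with IAA -0.86 and -1.21. After IAA, EXPA5 fell in aff1-3 (-0.76) and Wt (-0.94), with -0.25 in aff1-1. The fall in aff1-3 was lost by limma (adjusted p = 0.0201) and without IAA-treated aff1-3 replicate 2 (adjusted p = 0.0467, edgeR), and the difference between aff1-1 and Wt with IAA without IAA-treated aff1-1 replicate 3 (adjusted p = 0.0127, edgeR).

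EXPA15 (AT2G03090), an alpha-expansin on chromosome 2, differed between genotypes and showed no change past the threshold after IAA. It had 14.95, 12.2 and 13.05 CPM in IAA-treated aff1-1, 14.98, 14.2 and 10.11 CPM in IAA-treated aff1-3 and 27.4, 24.02 and 24.6 CPM in IAA-treated Wt. With mock it had 9.97, 10.5 and 11.6 CPM in aff1-1, 11.4, 11.45 and 11.8 CPM in aff1-3 and 32.1, 27.9 and 22.5 CPM in Wt. Every aff1 sample lay below every Wt sample. The log2 fold change against Wt was -1.36 (aff1-1) and -1.25 (aff1-3) with mock and -0.91 and -0.93 with IAA (highest adjusted p = 0.000117, edgeR).

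EXPA17 (AT4G01630), known from the emergence of lateral roots, had the lowest counts of the genes with a genotype difference. It had 32, 21 and 23 counts in IAA-treated aff1-1, 20, 16 and 19 in IAA-treated aff1-3 and 71, 115 and 77 in IAA-treated Wt, and with mock 1, 11 and 8 in aff1-1, 4, 1 and 3 in aff1-3 and 62, 64 and 65 in Wt. Wt was above both lines in both treatments, and mock-treated aff1-3 was close to 0. The ratio to mock-treated Wt was 0.135 in aff1-1 (95% exact counting interval 0.0808 to 0.215) and 0.0466 in aff1-3 (0.0199 to 0.0938). In edgeR the adjusted p was 0.000179 and 4.37e-06 with mock, and 0.00111 and 0.00195 with IAA. EXPA17 passed the filter in only 3 of the 6 groups, so its differences are in part built into the filter. The calls with IAA were lost with a sample left out (adjusted p = 0.0126 without IAA-treated aff1-1 replicate 3 and 0.018 without IAA-treated aff1-3 replicate 2, edgeR). Within aff1-3, EXPA17 was 9.24 times as high with IAA as with mock (interval 4.38 to 22.5, adjusted p = 0.000687 in edgeR and 0.0106 in limma). Within aff1-1 the ratio was 3.22 (interval 1.95 to 5.57, adjusted p = 0.0344, edgeR). In Wt the edgeR fold change after IAA was 1.56 and did not pass (adjusted p = 0.195). The test of whether the response of EXPA17 differed from that of Wt passed in neither line.

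**Figure D4:**
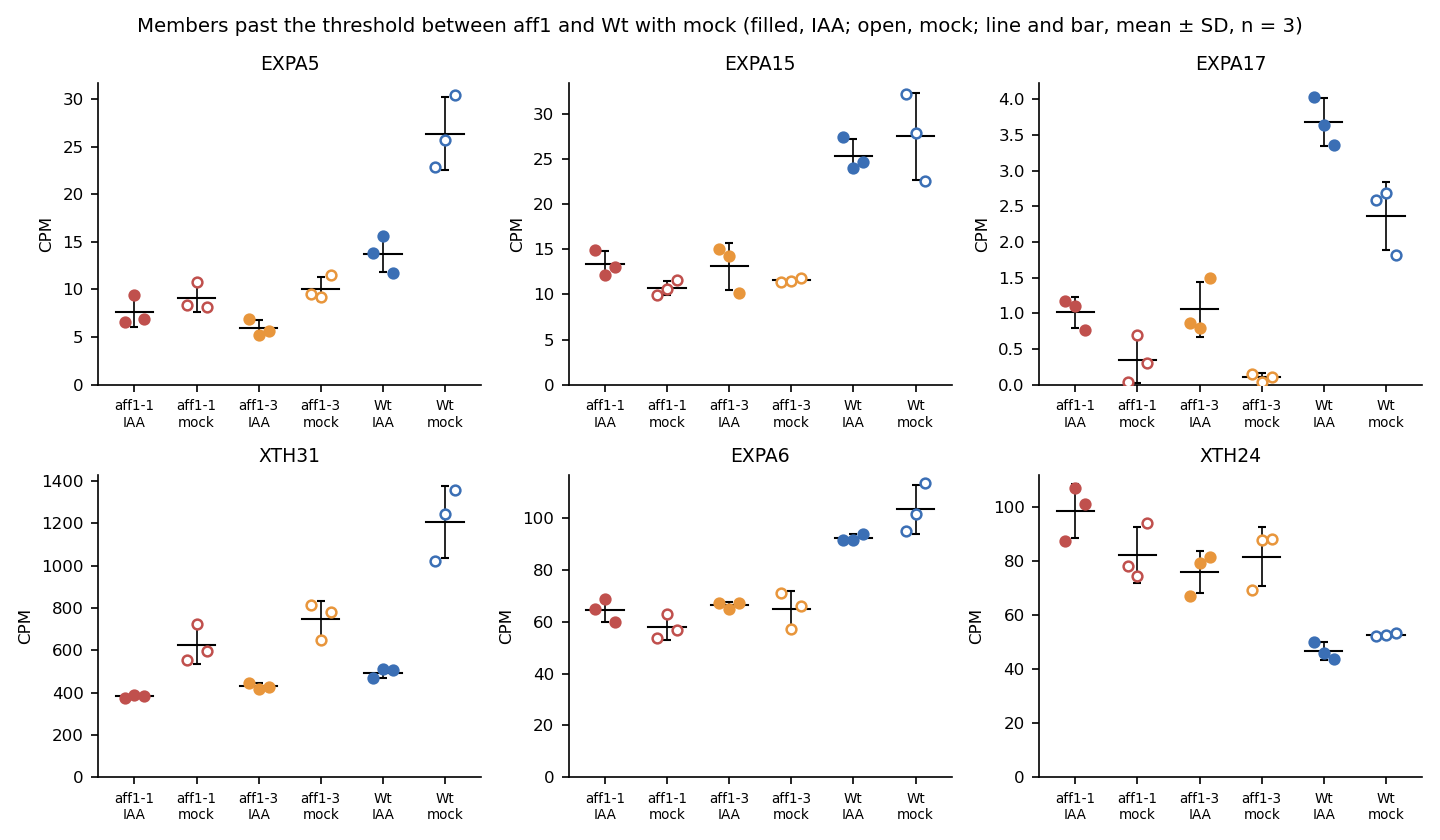
CPM of 5 members that were lower (EXPA5, EXPA15, EXPA17, XTH31, EXPA6) and 1 that was higher (XTH24) in mock-treated aff1 than in mock-treated Wt, in each sample. Filled points are IAA-treated and open points mock-treated samples, with the mean and SD of 3 samples. The mock-treated aff1 samples of EXPA5 lie at 8.13 to 11.5 CPM and those of Wt at 22.9 to 30.45 CPM, and the panels of EXPA5 and XTH31 show the mock-treated Wt samples above every other sample.

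EXPA6, EXPA18, EXPB3, EXPA1, XTH31, XTH4 and XTH33 were lower in both lines with mock. EXPA6 (AT2G28950) had 65.0, 68.9 and 59.85 CPM in IAA-treated aff1-1, 67.1, 64.7 and 67.3 CPM in IAA-treated aff1-3 and 91.6, 91.6 and 94.0 CPM in IAA-treated Wt, and with mock 53.7, 62.9 and 56.9 CPM, 71.0, 57.2 and 66.15 CPM and 95.1, 101 and 114 CPM in the same order of genotypes. Both lines were below Wt in either treatment, with log2 fold changes of -0.84 (aff1-1) and -0.67 (aff1-3) with mock and -0.52 and -0.48 with IAA. XTH31, described above, changed by -0.95 and -0.69 with mock in aff1-1 and aff1-3, and by -0.37 and -0.20 with IAA, where neither passed (adjusted p = 0.0238 and 0.302, edgeR). EXPB3 changed by -0.69 and -0.56 with mock, and XTH4, an XTH of cambium and wood, by -0.63 and -0.48. XTH33, which is anchored at the plasma membrane, changed by -0.50 and -0.68, and EXPA1 by -0.36 and -0.50, and both were short of the threshold with IAA.

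Further members passed with mock in 1 line. EXPA14 (-1.03), EXPB1 (-0.96), EXLB1 (-0.66) and EXPA9 (-0.30) passed with mock in aff1-3, with -0.93, -0.87, -0.41 and -0.20 in aff1-1, and XTH8 (-0.35) passed in aff1-1, with -0.33 in aff1-3 (adjusted p = 0.0109, edgeR). Limma did not call EXPA14, EXPB1 and EXPA9 in aff1-3 (adjusted p = 0.0422, 0.0121 and 0.0148), and the block did not call XTH8 (adjusted p = 0.0122, edgeR). With a sample left out, EXPA14 and EXPB1 reached 0.0648 and 0.0381 (without mock-treated Wt replicate 1), EXPA9 0.0357 (without mock-treated Wt replicate 2), EXLB1, XTH4 and EXPB3 in aff1-3 0.0216, 0.0193 and 0.0114 and EXPA1 in aff1-1 0.0191 (each without mock-treated Wt replicate 3), and XTH8 and XTH33 in aff1-1 0.0534 and 0.0487 (without mock-treated aff1-1 replicate 1), all as adjusted p from edgeR. The XTH8 call was lost whichever of the 6 samples was left out.

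With IAA, the expansins EXPA14, EXPB1, EXPB3 and EXLB1 were lower in aff1-1 than in Wt, by 1.62, 1.04, 0.63 and 0.67 on the log2 scale, and EXLB1 also in aff1-3, by 0.63. XTH5 (AT5G13870) had 13.4, 8.31 and 7.26 CPM in IAA-treated aff1-1, 24.1, 15.2 and 16.99 CPM in IAA-treated aff1-3 and 26.03, 21.55 and 28.05 CPM in IAA-treated Wt, log2 fold changes of -1.38 (aff1-1) and -0.41 (aff1-3), with adjusted p = 0.000114 and 0.234 (edgeR). Its aff1-1 samples lay below Wt and its aff1-3 samples overlapped Wt. With IAA, the count of members past the threshold was lower whichever sample was left out. In aff1-1 it was 18, 11 and 9 without IAA-treated aff1-1 replicates 1, 2 and 3 and 13, 13 and 12 without IAA-treated Wt replicates 1, 2 and 3, and in aff1-3 it was 8 to 10, with 8 without IAA-treated aff1-3 replicate 2 or IAA-treated Wt replicate 3. With mock it was 10 in aff1-1 without mock-treated aff1-1 replicate 3. The counts of all genes fell as well. With IAA they went from 1196 to between 554 and 1117 in aff1-1 and from 915 to between 509 and 687 in aff1-3. In the named mock fit of aff1-1 they went from 887 to 437. In aff1-1, EXPA14 reached an adjusted p of 0.0146 without IAA-treated aff1-1 replicate 3, EXPB1 0.0571 without IAA-treated Wt replicate 1 and EXLB1 0.0367 without IAA-treated Wt replicate 3, and in aff1-3 EXLB1 reached 0.0747 without IAA-treated aff1-3 replicate 1 (edgeR).

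Fewer members were higher than lower in aff1. With mock, 1 of the 50 was higher in aff1-1 and 4 in aff1-3, against 2.96% and 4.08% of all genes. With IAA, 6 and 3 of the 50 were higher, against 4.46% and 3.39% of all genes. XTH24 (AT4G30270), also called MERI5, had 87.4, 107 and 101 CPM in IAA-treated aff1-1, 67.2, 79.2 and 81.3 CPM in IAA-treated aff1-3 and 50.1, 46.0 and 43.7 CPM in IAA-treated Wt, and with mock 78.3, 74.4 and 93.85 CPM in aff1-1, 69.1, 87.6 and 88.0 CPM in aff1-3 and 52.4, 52.5 and 53.3 CPM in Wt. Every aff1 sample lay above every Wt sample. The log2 fold change against Wt was 0.64 in aff1-1 and 0.63 in aff1-3 with mock, and 1.08 and 0.70 with IAA, each with an SE of 0.11 (highest adjusted p = 0.000502, edgeR). Its neighbours XTH18 and XTH19 on the same strand of chromosome 4 were higher with mock in aff1-3 (0.59 and 0.60), with 0.40 and 0.36 in aff1-1 (adjusted p = 0.0383 and 0.0454, edgeR). XTH32 was higher in aff1-3 with mock (0.47) and in both lines with IAA (0.49 in aff1-1, 0.75 in aff1-3). EXPA3 was higher with IAA in both (0.42 and 0.38), and XTH16, XTH27 and XTH28 in aff1-1 (0.30, 0.34 and 0.34).

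Several of these calls were lost with a sample left out, XTH16 in aff1-1 and EXPA3 in aff1-3 whichever of the 6 samples it was. With mock in aff1-3, XTH18 reached an adjusted p of 0.018 without mock-treated aff1-3 replicate 3, and XTH32 0.0415 without mock-treated Wt replicate 1. With IAA, EXPA3 reached 0.0366 in aff1-1 and 0.0705 in aff1-3, and XTH32 0.04 and XTH16 0.0311 in aff1-1, each without IAA-treated Wt replicate 3, XTH27 0.0299 without IAA-treated Wt replicate 1, and XTH28 0.0308 without IAA-treated aff1-1 replicate 3 (edgeR).

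EXPA7, EXPA18, XTH12, XTH13, XTH14 and XTH26 are known from root hairs, where EXPA7 and EXPA18 act at the site of the bulge and XTH14 and XTH26 in the wall of the growing hair. EXPA7 and EXPA18 are both on the plus strand of chromosome 1 and carry the root hair element, a motif bound by root hair bHLH factors, in the 250 bases before the gene start (TAIR10.1, RefSeq). The element was searched on both strands, after the values of these genes had been seen, and was present in 0.76% of 26711 promoters of that length and in 2 of the 50 members. It is in capitals in both sequences, beginning 78 bases before the start in EXPA7 (chr1:4276255-4276504) and 40 bases before it in EXPA18 (chr1:23331313-23331562), and EXPA7 has a TGTCTC, also in capitals, nearer to the start, which does not overlap the element.
EXPA7: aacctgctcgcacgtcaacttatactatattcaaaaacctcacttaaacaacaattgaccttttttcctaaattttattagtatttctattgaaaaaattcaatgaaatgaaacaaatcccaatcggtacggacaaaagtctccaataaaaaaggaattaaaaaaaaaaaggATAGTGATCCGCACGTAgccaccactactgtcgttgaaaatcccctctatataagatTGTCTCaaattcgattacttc
EXPA18: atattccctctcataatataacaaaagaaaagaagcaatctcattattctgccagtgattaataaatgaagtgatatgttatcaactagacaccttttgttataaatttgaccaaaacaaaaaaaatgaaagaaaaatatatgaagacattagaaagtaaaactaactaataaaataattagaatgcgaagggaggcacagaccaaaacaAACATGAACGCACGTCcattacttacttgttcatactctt
EXPA7 (AT1G12560) had 21.35, 20.7 and 21.8 CPM in IAA-treated aff1-1, 24.6, 23.2 and 22.4 CPM in IAA-treated aff1-3 and 28.3, 36.2 and 37.1 CPM in IAA-treated Wt, and with mock 19.6, 23.6 and 17.8 CPM in aff1-1, 17.3, 18.9 and 15.8 CPM in aff1-3 and 20.9, 26.4 and 22.9 CPM in Wt. The groups separated with IAA, and with mock aff1-1 overlapped Wt. EXPA7 was lower with IAA in aff1-1 and aff1-3, with log2 fold changes of -0.67 and -0.53 (adjusted p = 0.000615 and 0.00563), and rose after IAA in Wt by 0.54 (adjusted p = 0.00234, edgeR), with 0.07 in aff1-1 and 0.44 in aff1-3. Without IAA-treated Wt replicate 2 the calls in aff1-3 and for the rise in Wt were lost (adjusted p = 0.0453 and 0.0242, edgeR). EXPA18 (AT1G62980) had 44.2, 36.75 and 45.1 CPM in IAA-treated aff1-1, 39.4, 39.4 and 37.8 CPM in IAA-treated aff1-3 and 52.6, 59.85 and 58.2 CPM in IAA-treated Wt, and with mock 35.9, 42.7 and 36.9 CPM in aff1-1, 35.4, 30.7 and 36.6 CPM in aff1-3 and 49.0, 58.1 and 58.3 CPM in Wt. It was below Wt in every aff1 sample, with log2 fold changes of -0.52 (aff1-1) and -0.69 (aff1-3) with mock and -0.44 and -0.55 with IAA. Both genes overlap a counted gene on the opposite strand. The EXPA18 calls in aff1-1 were lost with a sample left out (adjusted p = 0.0157 without mock-treated aff1-1 replicate 1 and 0.0421 without IAA-treated aff1-1 replicate 2, edgeR).

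XTH14 (AT4G25820) had 90.2, 85.8 and 88.4 CPM in IAA-treated aff1-1, 84.0, 77.35 and 74.8 CPM in IAA-treated aff1-3 and 113, 131 and 123 CPM in IAA-treated Wt, and with mock 77.1, 93.0 and 77.3 CPM in aff1-1, 73.95, 63.6 and 69.3 CPM in aff1-3 and 116, 130 and 136 CPM in Wt. All aff1 samples were below all Wt samples, with log2 fold changes of -0.63 and -0.89 with mock and -0.47 and -0.63 with IAA in aff1-1 and aff1-3. XTH12 and XTH13, neighbours on chromosome 5, were lower with mock, XTH12 by 0.65 in aff1-1 and 0.93 in aff1-3 and XTH13 by 0.82 and 1.19 on the log2 scale. With IAA, XTH12 was lower by 0.61 and 0.54, while XTH13 did not pass (-0.35 and -0.24, adjusted p = 0.0799 and 0.326, edgeR).

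XTH13 (AT5G57540) had 11.9, 10.7 and 9.84 CPM in IAA-treated against 19.1, 18.8 and 15.04 CPM in mock-treated aff1-1, 11.4, 13.3 and 10.3 CPM against 15.4, 12.2 and 13.2 CPM in aff1-3, and 12.1, 14.85 and 14.2 CPM against 29.75, 33.9 and 29.6 CPM in Wt. The treatments overlapped in aff1-3 and were far apart in Wt, with log2 fold changes of -0.70 in aff1-1, -0.22 in aff1-3 and -1.17 in Wt. XTH12 and XTH26 fell past the threshold after IAA in Wt (-0.48 and -0.74), with -0.45 and -0.57 in aff1-1 and -0.10 and -0.31 in aff1-3. XTH26 was lower with mock in aff1-1 (-0.64) and aff1-3 (-1.21) and with IAA in aff1-3 (-0.79). With a sample left out, the XTH12 calls reached adjusted p of 0.0233 in Wt (mock-treated replicate 2 left out), 0.0107 with mock in aff1-1 (mock-treated aff1-1 replicate 3), and 0.0111 and 0.0376 with IAA in aff1-1 and aff1-3 (IAA-treated replicate 2 of the line). Likewise the XTH13 fall in aff1-1 reached 0.0103 (IAA-treated replicate 3), XTH26 0.0407 with mock in aff1-1 (mock-treated aff1-1 replicate 3) and 0.0113 with IAA in aff1-3 (IAA-treated Wt replicate 3), and XTH14 0.0127 with IAA in aff1-1 (IAA-treated Wt replicate 2, all edgeR).

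**Figure D5:**
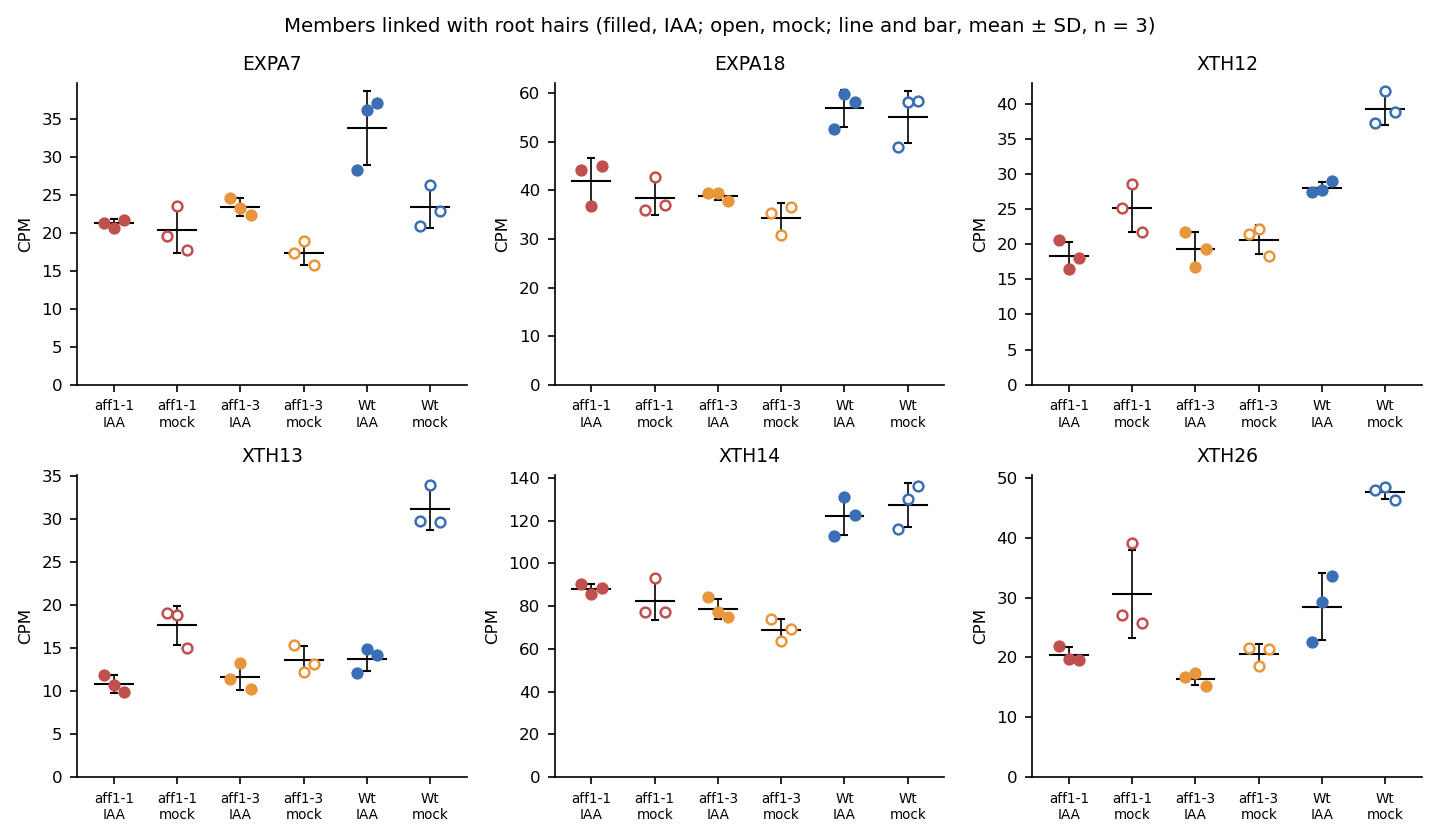
CPM of 6 members known from root hairs in each sample. Filled points are IAA-treated and open points mock-treated samples, with the mean and SD of 3 samples. For EXPA18 and XTH14 every aff1 sample lies below every Wt sample, whereas for XTH13 the IAA-treated samples of the 3 genotypes, between 9.84 and 14.85 CPM, lie close together.

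Of 7 root hair markers that are not members (RHD6, RSL4, COBL9, LRX1, PRP1, PRP3 and PER44), 4 were lower in each line with each treatment, namely LRX1, PRP1, PRP3 and PER44. RHD6, RSL4 and COBL9 did not pass in any of these comparisons, and their log2 fold changes had both signs. In aff1-1 and aff1-3 against Wt they were 0.12 and 0.49 for RHD6, -0.09 and -0.30 for RSL4 and -0.47 and -0.61 for COBL9 with mock, and -0.56 and 0.32 for RHD6, 0.14 and 0.40 for RSL4 and -0.17 and 0.07 for COBL9 with IAA. The 7 markers' summed level was 201 to 246 CPM in IAA-treated aff1-1, 210.5 to 246 CPM in IAA-treated aff1-3 and 326 to 371 CPM in IAA-treated Wt, and with mock 237 to 320.1 CPM, 204 to 257 CPM and 432.5 to 478 CPM in the same order of genotypes. This sum rests mostly on PRP1, PRP3 and PER44, with means of 128.6, 185.8 and 93.2 CPM in mock-treated Wt. RHD6, RSL4 and COBL9 had means of 4.43, 13.0 and 13.1 CPM there. COBL9 and PRP1 fell after IAA in Wt. Of the endodermis markers (5 of 6 tested) and the 6 green tissue markers, 0 passed between genotypes with mock, and with IAA 1 did, the green tissue marker RBCS3B, higher in aff1-1 than in Wt (log2 fold change 0.34, adjusted p = 0.007, edgeR). The part of root hairs in the lower member levels was not tested.

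XTH22 (AT5G57560), also known as TCH4, is induced by touch, and XTH23 is a related gene. XTH22 had 105, 229 and 172 CPM in IAA-treated against 126, 157 and 152 CPM in mock-treated aff1-1, 98.7, 102 and 122 CPM against 148, 223 and 231 CPM in aff1-3, and 139.9, 140.0 and 119 CPM against 113, 142 and 132 CPM in Wt. The treatments separated in aff1-3 only, and XTH22 fell there (log2 fold change -0.90, adjusted p = 0.00392), a call lost without IAA-treated aff1-3 replicate 1 (adjusted p = 0.028, edgeR). XTH23 changed by -0.75 after IAA in aff1-3 (adjusted p = 0.0119, edgeR). Between aff1-3 and Wt with mock, XTH22 changed by 0.64 and XTH23 by 0.69. Neither passed (adjusted p = 0.0319 and 0.0151, edgeR). Of 5 other touch and handling genes, TCH3, WRKY40, ZAT10 and ZAT12 were higher in aff1-3 than in Wt with mock, and TCH3 in aff1-1. Their summed level with mock was 907 to 1088 CPM in aff1-1, 1060.0 to 1542 CPM in aff1-3 and 690.5 to 901 CPM in Wt, and with IAA 928 to 1475 CPM in aff1-1, 917 to 1143 CPM in aff1-3 and 850.5 to 990.4 CPM in Wt. The part of handling in the XTH22 values was not tested.

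Other wall genes from lists of the same kind gave the following counts. Of 6 proton pump genes, 8 genes of primary wall cellulose synthesis and 3 of xyloglucan trimming, 0 passed in any of the 9 comparisons. Of 6 genes of xyloglucan synthesis, CSLC4, which makes the glucan backbone, rose after IAA in all 3 genotypes (0.83 in aff1-1, 0.64 in aff1-3, 0.79 in Wt). Of 5 tested GH9 endoglucanases, GH9C2 and GH9B8 rose after IAA in all 3 genotypes (0.96 and 0.87 in aff1-1, 0.80 and 1.22 in aff1-3, 1.29 and 0.54 in Wt). GH9B8 was lower with mock in both lines (-1.09 in aff1-1 and -1.17 in aff1-3), and GH9C2 in aff1-1 (-0.53). With IAA, GH9C2 was lower in aff1-1 (-0.85) and aff1-3 (-0.65) and GH9B8 in aff1-1 (-0.76). CEL3 rose after IAA in Wt (1.09, adjusted p = 0.00945, edgeR). Of the 16 remaining expansin and XTH genes, XTH10 and XTH11 were expressed enough to be tested, and neither passed.

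Among the members, TGTCTC was found within 250 bases before the start, on either strand, in 5 of 50 (EXPA5, EXPA6, EXPA7, EXPA10 and XTH6), against 10.9% of 26711 promoters. TGTCGG, another form of the auxin response factor site, was found in 3 (EXPA12, EXPB3 and XTH20), against 4.16%, and CACGTG, the G-box, in 0, against 6.58%. XTH19 and EXPA4 had none of these letters in that window. EXPA12, EXPA13, EXPA16, EXLA1, EXLA3, XTH6, XTH17, XTH20, XTH23 and XTH30 passed in no comparison.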

How the data were processed

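The authors deposited 1 table of counts, made with STAR and featureCounts (Subread) on TAIR10 from reads with a single alignment that fell in a single gene, and not normalized; the strand setting is not given in the sources used here. No per-sample column was left unused. Gene models were taken from TAIR10.1, whose nuclear sequence is that of TAIR10, and 99% of the rows were matched. After 4 nuclear rRNA genes were left out, the genes with more than 1 CPM in 2 or 3 samples of any group were tested with edgeR 4.0.16 (R 4.3.3): TMM scaling, 1 mean for each of 6 groups, quasi-likelihood tests, Benjamini-Hochberg adjusted p below 0.01 over 19383 genes. The script was tested on simulated data. As alternatives, limma 3.58.1 was run with weights for samples (the method of the authors), then DESeq2 1.42.0, its size factors, no filter, a fit of only the groups compared, a block for the replicate number, organelle genes left out, a threshold of 0.05 and each sample left out. At the depths reached, 3 counts were taken as the floor of a library. Counting intervals cover counting error only. Members and lists were chosen with earlier results of these data known. Members past the threshold in at least 1 comparison could be named. Sample values were given for those with the largest changes, and the highest levels per exon length and tandem neighbours were named. Other wall genes were limited to 3 per list and comparison.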

Additional observations from a re-analysis of the deposited data

How the results depend on the processing

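None of the 131 results of members past the threshold reversed its direction under the alternatives that gave it a value, and no scaling moved the median of all genes by more than 0.1. The response of aff1-3 to IAA against that of Wt had 0 members past the threshold, against 3 in DESeq2 (EXPA1, XTH13 and XTH19), 1 without a filter (XTH13) and 2 at 0.05 (XTH13 and XTH19). Of all genes, 17 passed in the main fit, 117 in DESeq2, 43 of 26691 without a filter and 98 at 0.05. Of 1047 values of these results under the 8 alternatives, 30 were no longer past the threshold, 18 of them with only the groups compared, 7 with limma, 3 without a filter and 2 with the replicate block. Those lost with only the groups compared were EXPA20 and EXPB1 in aff1-1 and EXPA3, EXPA5, XTH21 and XTH32 in aff1-3 after IAA, EXPA1, XTH8 and XTH33 in aff1-1 and EXPA9, EXPA14, EXPB1, XTH4, XTH18, XTH19 and XTH32 in aff1-3 with mock, and EXPB1 in aff1-1 and EXLB1 in aff1-3 with IAA. EXPA17 in aff1-3 after IAA did not pass the filter in that fit and has no value there. Same-numbered samples showed no general tendency to deviate together (8 of 45 pairs with a correlation over 0.1, median 0.013, range -0.283 to 0.261). How the samples were numbered is not given in the sources used here, so whether some of the numbers pair samples is not known. With the replicate block, 21, 17 and 22 members passed after IAA in aff1-1, aff1-3 and Wt, 17 and 25 with mock and 21 and 13 with IAA in aff1-1 and aff1-3 against Wt, and 0 and 0 in the interactions. Of all genes, 996, 1022 and 1927, 919 and 1383, 1369 and 942, and 22 and 24 passed there, in that order. With each sample left out, 16 to 21, 13 to 17 and 16 to 19 members passed after IAA, 10 to 17 and 16 to 20 with mock, 9 to 18 and 8 to 10 with IAA, and 0 to 0 and 0 to 1 in the interactions, in the same order. Of all genes, 663 to 825, 676 to 886 and 1399 to 1722 then passed after IAA, and 437 to 858 and 874 to 1245 with mock. With IAA it was 554 to 1117 and 509 to 687, and in the interactions 2 to 16 and 8 to 30. The cause was not tested. Of 786 values of the 131 results with a sample left out, 180 were no longer past the threshold. EXPA17 and XTH21, at a few counts per library in some groups, were limited by depth.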
